A study of Mus musculus with 8 samples.

Results

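The subunits of the proteasome were followed in the hippocampus of Wfs1-mutant mice, taking every entry of the deposited count table whose symbol is Psma, Psmb, Psmc or Psmd followed by digits, apart from Psmb8 and Psmb9. The rule found 37 genes among 24078 entries, 17 in the core particle (Psma and Psmb) and 20 in the regulatory cap (Psmc and Psmd), and all 37 passed the filter on low counts. The tested animals were homozygous for the Wfs1 mutation of the strain labelled Wfs1tm1Koks, and their controls were wild-type animals under the same strain label (all 8 carry wfs1 as the label for the mutant gene), with 4 mice of each genotype and 1 library per mouse. Values of single libraries are listed for homozygous 15, 16, 17 and 18 and for wild-type 7, 8, 9 and 10, the numbers their labels give. The labels name no promoter-driven transgene or Cre and no treatment, and they give neither age nor sex. Wfs1 encodes wolframin, a membrane protein of the endoplasmic reticulum. Whole hippocampal RNA was depleted of ribosomal RNA and sequenced in pairs of 50 and 35 bp on a SOLiD 4 instrument.

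The proteasome degrades proteins that carry ubiquitin chains. Its core is a barrel in which rings of alpha subunits gate the entrance and rings of beta subunits, some of them proteolytic, face the inner chamber. The cap recognises the chain, a lid enzyme removes it, and a ring of ATPases in the base unfolds the substrate and feeds it into the barrel. Subunit genes are known to be induced together in mammalian cells by the transcription factor Nfe2l1, which binds antioxidant response elements in their promoters. Neurons depend on this system for protein turnover at synapses.

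The letters TGANNNNGC were searched as a loose form of the core of that element, which leaves the base after TGA free. The promoters of Psmb3 (a structural beta subunit), Psmb5 (a catalytic beta subunit) and Psmd12 (a lid subunit) are printed from the RefSeq promoter table, build GRCm38.p6. Matches on either strand are in capitals. The genes printed are those called lower in homozygous mice that have a match on the gene's own strand within 50 bases before the annotated start. Each window runs from 250 bases before that start to 50 after it and is written 5′ to 3′ in the direction of the gene.
Psmb3, chr11:97703184-97703483, plus strand: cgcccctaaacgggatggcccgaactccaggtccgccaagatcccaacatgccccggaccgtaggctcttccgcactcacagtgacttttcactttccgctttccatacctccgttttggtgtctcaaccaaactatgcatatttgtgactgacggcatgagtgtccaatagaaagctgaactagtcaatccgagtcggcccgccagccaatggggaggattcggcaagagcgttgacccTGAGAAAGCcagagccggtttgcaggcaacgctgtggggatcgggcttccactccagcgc
Psmb5, chr14:54617946-54618245, minus strand: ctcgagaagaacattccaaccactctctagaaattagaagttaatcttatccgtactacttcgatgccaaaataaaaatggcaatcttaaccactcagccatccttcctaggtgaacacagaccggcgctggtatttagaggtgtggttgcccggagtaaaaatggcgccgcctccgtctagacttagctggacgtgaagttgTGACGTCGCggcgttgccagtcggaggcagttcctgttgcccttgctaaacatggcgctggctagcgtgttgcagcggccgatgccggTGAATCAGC
Psmd12, chr11:107479278-107479577, plus strand: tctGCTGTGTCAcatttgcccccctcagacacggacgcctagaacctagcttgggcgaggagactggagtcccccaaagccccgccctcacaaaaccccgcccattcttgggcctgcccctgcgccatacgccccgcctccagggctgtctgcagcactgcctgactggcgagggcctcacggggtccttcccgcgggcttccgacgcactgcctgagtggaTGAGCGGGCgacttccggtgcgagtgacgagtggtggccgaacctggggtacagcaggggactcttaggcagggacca
The match nearest to the start began 10 bases before it in Psmb3, 47 in Psmb5 and 28 in Psmd12. Psmb5 held a further match after the start and Psmd12 a further match on the opposite strand, 247 bases before the start. Psmb6 and Psmd9, which were not called, also had a match within 50 bases before the start.

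A promoter window was at hand for 30 of the 37 genes, the others being Psma8, Psmb1, Psmb2, Psmb7, Psmc3, Psmd3 and Psmd7. Of these 30 genes (Psma6 and Psmc2 with 2 windows each) 17 held TGANNNNGC in at least 1 window (56.7%), against 45.05% of all 27025 genes in the table. This loose form was found in 11 of 19 subunit genes called lower and in 6 of the 11 others, and in 9 of 13 core and 8 of 17 cap genes. CCAAT, the letters of the NF-Y box, was present in 12 of 30 (40.0%, against 41.1% of all genes). GGGCGG, the letters of the GC box, was present in 18 of 30 (60.0%, against 38.2%), and TATAAA, the letters of the TATA box, in 3 of 30 (10.0%, against 15.7%). All these motifs were searched on both strands, and matches of different motifs were counted separately where they overlapped. A match is a run of letters and not a measured binding site.

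Levels are given in CPM, that is counts scaled by library size with TMM factors. Library totals were 3250949 to 5077114 counts in homozygous mice and 3296309 to 6747411 counts in wild-type mice. Wfs1 itself averaged 14.8 ± 2.61 CPM in homozygous mice and 52.0 ± 7.49 CPM in wild-type mice (SD over the 4 mice), and its log2 fold change was -1.81 (SE 0.16, adjusted p = 2.62e-05). All log2 fold changes are homozygous over wild-type. Every adjusted p comes from the quasi-likelihood fit of edgeR and is Benjamini-Hochberg adjusted over the 20478 genes that passed the filter, and a gene was called at an adjusted p under 0.05. Markers of some brain cell types differed by genotype as well. Beside the counts that follow, 20.4% of all genes tested were called lower and 20.7% higher. Of 6 general neuron markers 5 were called lower and 1 higher, with a summed level of 1572 to 1819 CPM in homozygous and 2287 to 3170 CPM in wild-type mice. Markers of hippocampal neurons summed to 408 to 466 CPM in homozygous and 632 to 813 CPM in wild-type mice, with 4 of 6 lower. Those of oligodendrocytes summed to 842 to 1050 CPM in homozygous and 1236 to 1990 CPM in wild-type mice, with 4 of 5 lower. Astrocyte markers (620 to 815 CPM in homozygous and 805 to 1037 CPM in wild-type mice, 2 of 5 lower) and microglial markers (175 to 252 CPM in homozygous and 171 to 218 CPM in wild-type mice, 1 of 5 lower) overlapped in their sums. Of 4 endothelial markers 1 was called lower and 1 higher, choroid plexus markers varied widely between libraries of both genotypes (81.3 to 811.3 CPM in homozygous and 171.5 to 1168 CPM in wild-type mice, 1 of 4 lower), and 0 of 4 striatal markers were called. Among blood markers Hbb-b1 was called lower and Alas2 higher. The 5 hypothalamic markers were at or near 0, with 0 to 9 counts per homozygous and 1 to 11 counts per wild-type library. The part of these cell type differences in the results that follow was not tested.

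Most subunit transcripts were lower in homozygous hippocampus. Of the 37 genes 24 were called lower, 1 was called higher (Psmd10) and 12 were not called. Of all genes tested, 20.4% were called lower and 20.7% higher. The median log2 fold change of the 37 genes was -0.58 and ran from -1.27 (Psmb5, next to Psmd3 at -1.26) to 2.25 (Psmd10), against a median of 0.05 over all genes tested, and 34 of the 37 values were negative. In 21 genes every homozygous library lay below every wild-type library, and in 1 every homozygous library lay above, against 18.8% of all genes below and 18.8% above. In these bulk samples fewer cells of a type and less RNA per cell cannot be told apart.

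Across all genes of these libraries, fold change also varied with abundance, so the counts were repeated with that trend taken out. With each library's curve on mean gene abundance removed, 23 of the 37 subunits were called lower and 1 higher, against 18.3% and 16.7% of all genes. In that fit 11 core and 12 cap genes were lower, with medians of -0.63 and -0.45, against -0.02 over all genes. Of the 6 general neuron markers 0 were then called lower and 1 higher. Their median moved from -0.57 to -0.25, and that of the 37 subunits from -0.58 to -0.57. Hippocampal neuron markers still had 3 of 6 lower (median -0.43) and oligodendrocyte markers 3 of 5 (median -0.52). With the curve on counts per kilobase of exon removed instead, 17 subunits were called lower and 1 higher, against 18.8% and 15.3% of the 20125 genes with an exon length. In that fit 9 core and 8 cap genes were lower, with medians of -0.45 and -0.27, against -0.05 over all genes. Psma3, Psmb10 and Psmd5 were among them, though not called in the fit as reported, and 10 subunits lost their call. General neuron markers then had 0 of 6 lower, hippocampal neuron markers 1 of 6 and oligodendrocyte markers 0 of 5. In both fits the correction depends on a gene's own level, so calls lost by markers and by subunits are not on equal terms. Scaling by library totals alone shifted the median of all genes to 0.25 and made 73.4% of all calls higher, against 50.4% with TMM factors. In that fit 15 subunits were called lower and 2 higher (Psma8 and Psmd10), against 11.8% and 32.4% of all genes. Of the 25 called subunits 11 were called in all 16 alternative fits: Psma4, Psmb1, Psmb2, Psmb3, Psmb4, Psmb5, Psmc2, Psmd2, Psmd3, Psmd8 and Psmd12. The sign of all 25 stayed the same in those fits.

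**Figure D1:**
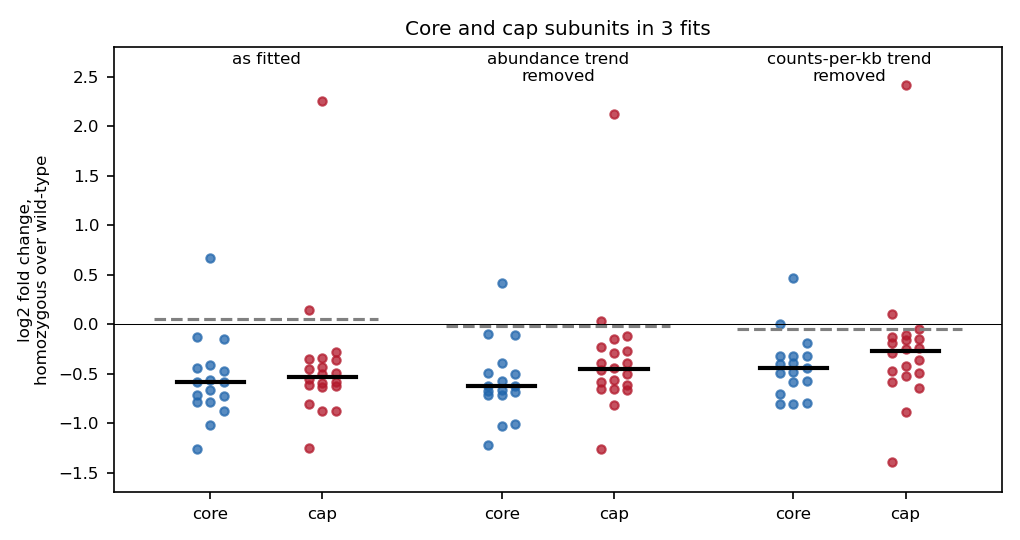
Log2 fold changes of the core (blue) and cap (red) genes, homozygous over wild-type, in the fit as reported (as fitted) and in fits with the abundance trend or the trend on counts per kilobase of exon removed. Each point is 1 gene, the black bars are their medians, and the dashed grey lines are the median of all genes tested. Both medians lie below 0 in all 3 fits, at -0.59 and -0.53 as fitted and -0.45 and -0.27 once the trend on counts per kilobase was taken out.

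**Figure D2:**
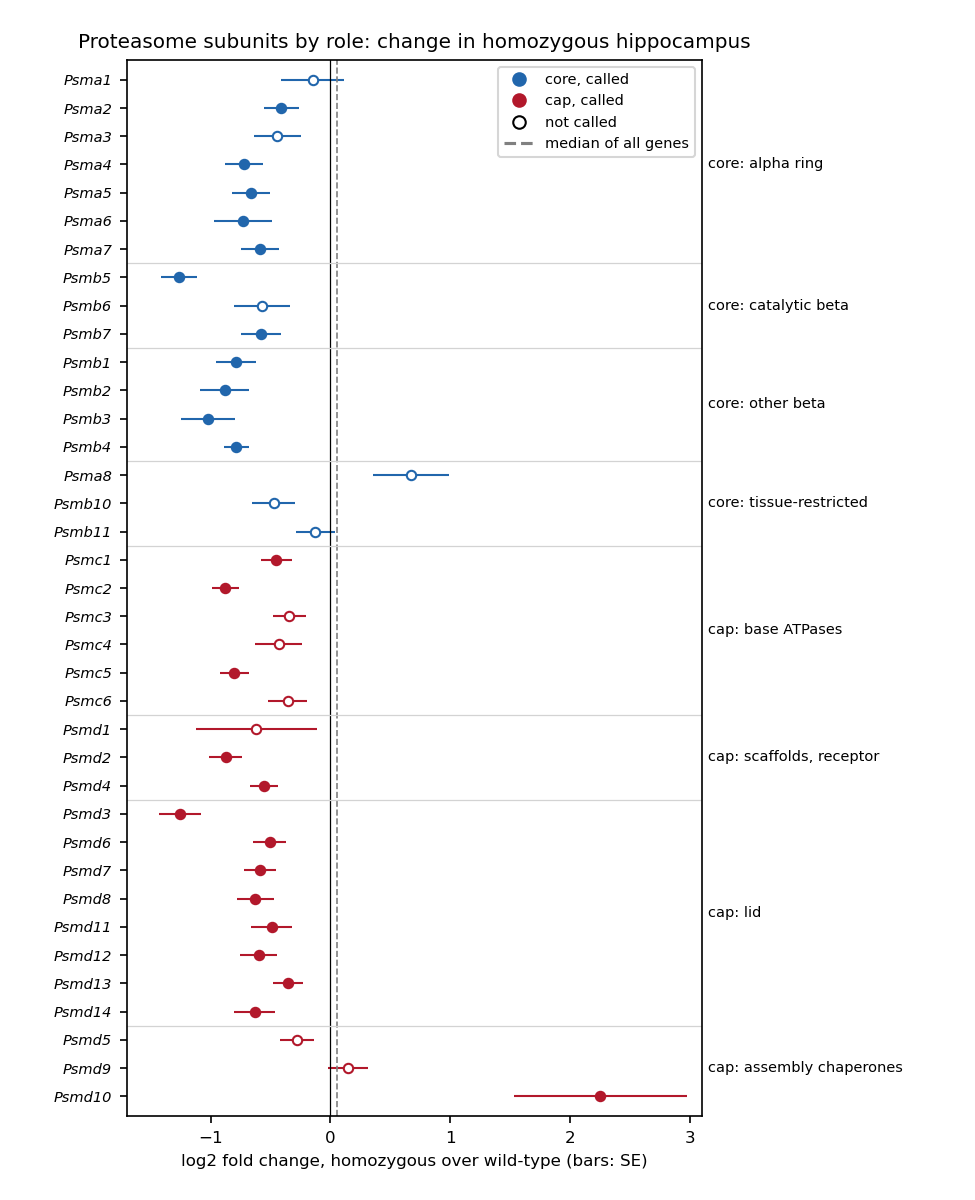
Log2 fold change of the 37 proteasome subunits, homozygous over wild-type (horizontal axis), ordered by role, with bars of 1 SE. Filled points are called genes, blue for the core and red for the cap, and the dashed line is the median of all genes tested (0.05). All 4 structural beta genes and all 8 lid genes lie left of 0 and are called, while Psmd10 lies far to the right at 2.25.

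**Figure D3:**
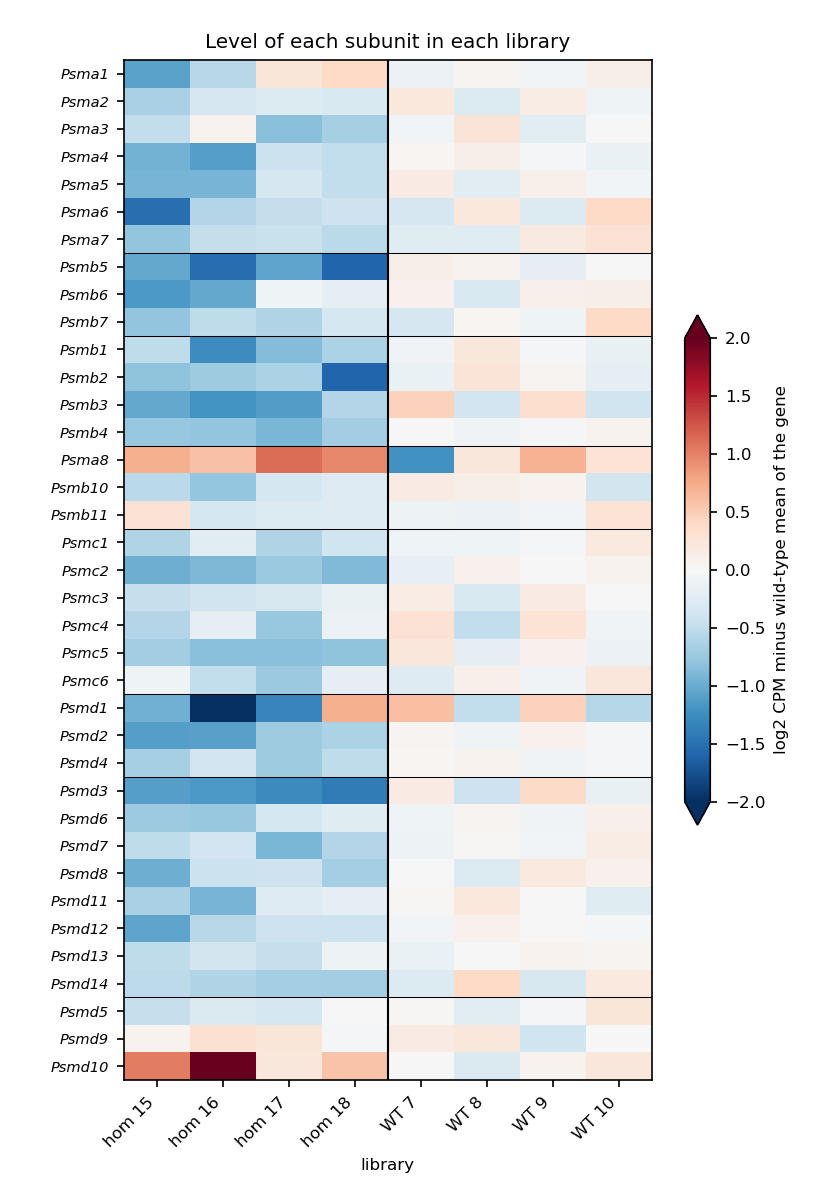
Level of each subunit in each of the 8 libraries, as log2 CPM minus the gene's mean over the wild-type libraries, with homozygous libraries on the left. Rows follow the order by role, and colours saturate at 2 in either direction, which Psmd10 in homozygous 16 exceeds. Blue prevails in the 4 homozygous columns, with Psma8 and Psmd10 in red.

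The alpha ring gates the barrel, and 5 of its 7 ubiquitous genes fell (Psma2, Psma4, Psma5, Psma6 and Psma7), with a median log2 fold change of -0.59 over the 7. Psma4 was at 26.5, 23.8, 37.9 and 36.1 CPM in homozygous mice, against 52.5, 55.3, 50.4 and 46.3 CPM in wild-type mice. The genotypes did not overlap, and its log2 fold change was -0.72 (SE 0.16, adjusted p = 0.00461). Psma6 was at 20.7, 39.2, 42.5 and 44.3 CPM in homozygous mice, against 46.7, 68.5, 48.9 and 77.6 CPM in wild-type mice. Here homozygous 15 was far below the other 3 homozygous libraries, which reached close to the lowest wild-type values, and the log2 fold change was -0.73 (SE 0.24, adjusted p = 0.0313). The call of Psma6 was lost without homozygous 15 (-0.52, adjusted p = 0.0603), without wild-type 8 (-0.68, adjusted p = 0.0585) and without wild-type 10 (-0.59, adjusted p = 0.0861). It was also lost without the trend on counts per kilobase (-0.32, adjusted p = 0.334) and with library totals alone (-0.54, adjusted p = 0.0803). Without the trend on counts per kilobase Psma4 and Psma7 stayed called, and Psma3 was called lower (-0.58, adjusted p = 0.0312). With library totals alone 2 of the 7 genes were called. Psma2, whose groups overlapped slightly, had a log2 fold change of -0.41 (adjusted p = 0.0397) and was called in only 3 of the 8 fits that left out 1 library. Psma5 and Psma7 had log2 fold changes of -0.66 and -0.59 with no overlap between genotypes. Psma1 and Psma3 were not called, at -0.15 and -0.44. Psma1 was the most uneven of the ring, at 20.8, 29.9, 51.8 and 57.5 CPM in homozygous mice and between 40.3 and 47.3 CPM in wild-type mice.

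Of the 3 constitutive catalytic beta genes, Psmb5 (chymotrypsin-like) and Psmb7 (trypsin-like) fell. Psmb5 was at 32.0, 22.7, 31.2 and 21.7 CPM in homozygous mice, against 70.1, 68.2, 57.3 and 65.0 CPM in wild-type mice. The highest homozygous library lay far below the lowest wild-type one, with a log2 fold change of -1.27 (SE 0.15, adjusted p = 0.000173). Psmb7 was at 43.8, 52.9, 49.7 and 59.3 CPM in homozygous mice, against 59.6, 77.6, 70.8 and 99.3 CPM in wild-type mice. Its groups almost touched, at homozygous 18 and wild-type 7, and the log2 fold change was -0.58 (SE 0.17, adjusted p = 0.0161). The call of Psmb7 was lost without homozygous 15 (adjusted p = 0.0504), without the trend on counts per kilobase (-0.32, adjusted p = 0.151) and with library totals alone (-0.39, adjusted p = 0.0807). Psmb5 stayed called without the trend on counts per kilobase, at -0.79 (adjusted p = 0.0036). Psmb6 (caspase-like) was not called, at a log2 fold change of -0.57 (adjusted p = 0.0703). It was at 14.3, 15.7, 30.1 and 27.9 CPM in homozygous mice, against 33.9, 25.8, 34.2 and 34.5 CPM in wild-type mice. Homozygous 15 and 16 were low in Psmb6, while homozygous 17 and 18 lay above wild-type 8.

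The structural beta genes Psmb1 to Psmb4, which build the ring without a mature proteolytic site, all fell, with non-overlapping genotypes in 4 of 4 and a median of -0.84. Psmb3 was at 24.7, 21.8, 23.1 and 33.5 CPM in homozygous mice, against 69.0, 38.3, 63.1 and 37.9 CPM in wild-type mice. Wild-type 7 and 9 were far above wild-type 8 and 10 in this gene, and its log2 fold change was -1.02 (SE 0.22, adjusted p = 0.00436). Psmb2 was at 10.6, 11.3, 11.9 and 6.16 CPM in homozygous mice, against 16.9, 22.0, 19.3 and 16.2 CPM in wild-type mice. Homozygous 18 was the lowest of all 8, and the log2 fold change was -0.88 (SE 0.20, adjusted p = 0.00586). Psmb1 and Psmb4 had log2 fold changes of -0.79 and -0.78. All 4 genes stayed called without either trend and with library totals alone, and Psmb4 moved to -0.45 without the trend on counts per kilobase.

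The core genes known for restricted expression gave no call in the fit as reported. Psma8, an alpha subunit of the testis, was at 5.65, 5.23, 7.52 and 6.75 CPM in homozygous mice, against 1.5, 4.07, 5.62 and 4.21 CPM in wild-type mice. Those are few counts, and its log2 fold change of 0.67 had an SE of 0.32 (adjusted p = 0.11). Psmb10, the inducible catalytic subunit of the immunoproteasome, had a log2 fold change of -0.48 (adjusted p = 0.0539). Some other fits called Psmb10 lower, among them those without the abundance trend (-0.63, adjusted p = 0.0225) and without the trend on counts per kilobase (-0.58, adjusted p = 0.0308). With library totals alone it was not called (-0.27, adjusted p = 0.221). Psmb11, the beta subunit of cortical thymic epithelium, had a log2 fold change of -0.13 (adjusted p = 0.559). Psmb11 shares stretches of at least 100 bp at 95% identity or more with exons of 40 other annotated genes, 21 of them in the table, so its counts are uncertain.

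In the base of the cap, 3 of the 6 ATPase genes fell (Psmc1, Psmc2 and Psmc5), with a median of -0.44 over the 6. Psmc2 was at 31.4, 33.4, 37.0 and 33.8 CPM in homozygous mice, against 55.5, 66.1, 61.9 and 65.4 CPM in wild-type mice. Both groups were narrow and far apart, with a log2 fold change of -0.88 (SE 0.11, adjusted p = 0.000278). Psmc5 was at 59.5, 54.3, 54.1 and 55.5 CPM in homozygous mice, against 112.7, 85.1, 102.2 and 89.4 CPM in wild-type mice. It too was separated in all libraries, with a log2 fold change of -0.80 (SE 0.12, adjusted p = 0.000697). Psmc1 had a log2 fold change of -0.45 (adjusted p = 0.0173). Without the trend on counts per kilobase only Psmc2 of the 6 stayed called, while Psmc5 was at -0.30 (adjusted p = 0.0584) and Psmc1 at -0.11 (adjusted p = 0.563). With library totals alone Psmc1 was not called (adjusted p = 0.143). Psmc3, Psmc4 and Psmc6 were not called, at -0.34, -0.43 and -0.36 with adjusted p of 0.0633, 0.0975 and 0.0991, and their genotypes overlapped.

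Psmd2 and Psmd1 are the large scaffolds of the base, and Psmd4 is a receptor for ubiquitin chains. Psmd2 was at 67.3, 67.7, 87.9 and 93.1 CPM in homozygous mice, against 149.1, 135.3, 153.2 and 140.3 CPM in wild-type mice. Each homozygous library was well below each wild-type library, with a log2 fold change of -0.87 (SE 0.14, adjusted p = 0.000834). Psmd4 was at 48.6, 59.0, 46.6 and 54.0 CPM in homozygous mice, against 78.9, 80.02, 73.3 and 74.3 CPM in wild-type mice. Its groups were likewise apart, with a log2 fold change of -0.56 (SE 0.12, adjusted p = 0.00359). Without the trend on counts per kilobase Psmd4 was at -0.24 and not called (adjusted p = 0.14), while Psmd2 was called at -0.52. Psmd1 varied widely within both genotypes, at 200.5, 97.9, 156.7 and 639.3 CPM in homozygous mice, against 597.2, 277.4, 542.1 and 262.6 CPM in wild-type mice. Homozygous 18 exceeded all wild-type libraries, and wild-type 7 and 9 were well above wild-type 8 and 10. Psmd1 was not called over all libraries, with a log2 fold change of -0.62 (SE 0.50, adjusted p = 0.342), and without homozygous 18 it was called, with a log2 fold change of -1.47 (adjusted p = 0.00761).

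The lid holds the deubiquitinating subunit and its supports, and all 8 of its genes with a Psmd symbol fell, 6 of them with no overlap between genotypes, with a median of -0.59. Psmd3 was at 23.1, 22.4, 20.5 and 18.8 CPM in homozygous mice, against 55.5, 37.3, 64.5 and 44.8 CPM in wild-type mice. Homozygous libraries were close together and wild-type libraries spread, with a log2 fold change of -1.26 (SE 0.17, adjusted p = 0.00038). Psmd14, the deubiquitinase that cuts chains from substrates, was at 25.4, 24.1, 22.8 and 22.6 CPM in homozygous mice, against 30.0, 48.2, 29.2 and 41.7 CPM in wild-type mice. Wild-type 7 and 9 were close to the homozygous libraries in Psmd14, whose log2 fold change was -0.63 (SE 0.17, adjusted p = 0.0132). The other lid genes ran from -0.36 (Psmd13, adjusted p = 0.039) to -0.63 (Psmd8, adjusted p = 0.00788), with Psmd12 at -0.60 (adjusted p = 0.00916), Psmd7 at -0.59 and Psmd6 at -0.51. Psmd13 and Psmd11 (-0.49, adjusted p = 0.04) overlapped between genotypes and were called in only 2 and 3 of the 8 fits that left out 1 library. Of the 8 lid genes 5 stayed called without the trend on counts per kilobase, the others being Psmd6 (-0.25), Psmd7 (-0.36) and Psmd13 (-0.16), and 4 stayed called with library totals alone.

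Psmd5, Psmd9 and Psmd10 are chaperones that help to assemble the base and leave the finished cap. None of the 3 was called lower in the fit as reported. Psmd10, also known as gankyrin, was at 24.6, 179.5, 14.2 and 17.9 CPM in homozygous mice, against 12, 9.83, 12.7 and 14.1 CPM in wild-type mice. Homozygous 16 stood alone, and the lowest homozygous library lay just above the highest wild-type one. Over all libraries its log2 fold change was 2.25 (SE 0.72, adjusted p = 0.0277). Without homozygous 16 it was 0.64 (adjusted p = 0.0304). The gene was not called when any 1 wild-type library was left out (adjusted p = 0.0563 to 0.0644). Psmd5 and Psmd9 had log2 fold changes of -0.28 (adjusted p = 0.134) and 0.14 (adjusted p = 0.503). Psmd5 was called lower without the trend on counts per kilobase (-0.42, adjusted p = 0.0391) and without homozygous 18 (-0.39, adjusted p = 0.0479).

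Most genes of both the core and the cap were lower. The core had 11 of 17 genes called lower (64.7%) and 0 called higher, with a median log2 fold change of -0.59. The cap had 13 of 20 called lower (65.0%) and 1 called higher, with a median of -0.53. The core median minus the cap median was -0.055 as fitted, -0.18 without the abundance trend and -0.17 without the trend on counts per kilobase, and this difference was not tested. Without the genes of restricted expression and the base chaperones these medians were -0.69 over 14 core genes and -0.59 over 17 cap genes. The summed core level was 436.5, 443.2, 516.4 and 532.7 CPM in homozygous mice, against 731.5, 739.8, 740.2 and 777.1 CPM in wild-type mice. The groups were far apart in this sum. The summed cap level was 928.2, 1026, 910.5 and 1482 CPM in homozygous mice, against 1736, 1348, 1706 and 1411 CPM in wild-type mice. That sum overlapped between genotypes, and homozygous 18 had 639.3 CPM of Psmd1 in it. Without Psmd1 and Psmd10 the remaining 18 cap genes summed to 703.2 to 825.1 CPM in homozygous mice and 1061 to 1152 CPM in wild-type mice, with no overlap. The ratio of the core sum to that reduced cap sum was 0.639 ± 0.045 in homozygous mice and 0.669 ± 0.027 in wild-type mice (SD, n = 4 each). The mean log2 CPM of all 17 core genes minus that of all 20 cap genes was -0.73 ± 0.18 in homozygous mice and -0.63 ± 0.08 in wild-type mice (SD, n = 4 each). These 2 differences between genotypes were smaller than the spread within the homozygous group, and neither was tested.

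**Figure D4:**
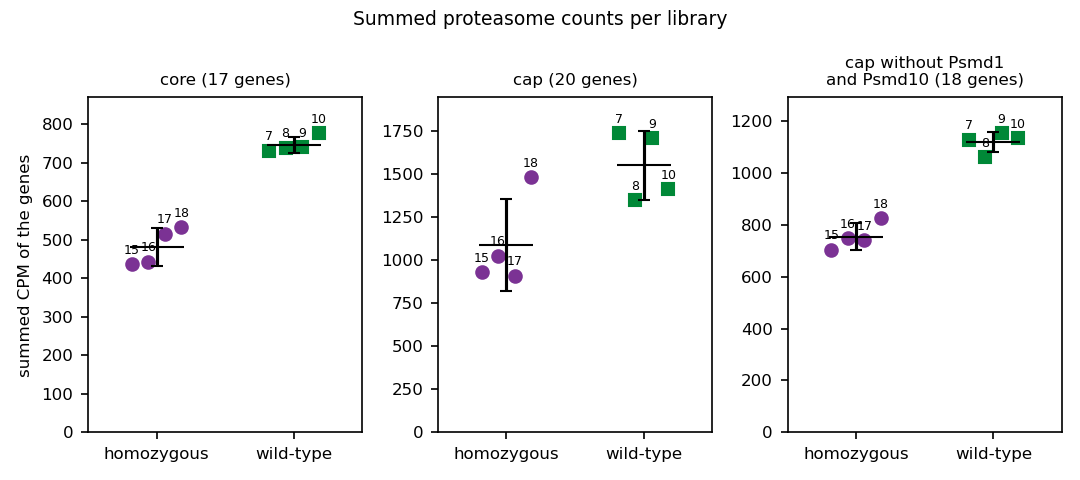
Summed CPM of the 17 core genes, the 20 cap genes and the 18 cap genes without Psmd1 and Psmd10 (vertical axes from 0), with 1 numbered point per library, the mean as a line and 1 SD as a bar. Homozygous libraries lie below all wild-type libraries in the first and last panels. In the middle panel homozygous 18, at 1482 CPM, lies among the wild-type libraries.

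Levels were compared between genes only per kilobase of exon. The length merged all exons annotated to a gene, so the order depends on the annotation as well as on the counts. In wild-type mice Psmb5 (72.4 ± 6.27 CPM per kilobase) and Psmc5 (69.8 ± 9.0) ranked highest and did not differ beyond their spread, followed by Psmd1 (57.8 ± 24.0), Psma6 (49.0 ± 12.2) and Psmc3 (46.8 ± 6.74; SD, n = 4 throughout). In homozygous mice Psmc5 (40.1 ± 1.81 CPM per kilobase) and Psmc3 (36.9 ± 3.51) led the genes with a narrow spread, and Psmb5 was at 29.9 ± 6.07. Psmd10, 31st of 37 in wild-type mice at 8.27 ± 1.21 CPM per kilobase, had the highest homozygous mean, 40.2 ± 54.7, with homozygous 16 far above the others. The lowest 2 genes per kilobase were the same in both genotypes. For Psmd9 the merged exons span 7248 bp, against a median of 2938.5 bp over the cap genes. Psma8 was at 2.52 ± 0.42 CPM per kilobase in homozygous and 1.54 ± 0.69 in wild-type mice, and Psmd9 at 2.749 ± 0.28 in homozygous and 2.51 ± 0.46 in wild-type mice. The median core gene was at 11.2 CPM per kilobase in homozygous and 15.5 in wild-type mice, and the median cap gene at 13.8 in homozygous and 17.8 in wild-type mice. Among the 17 core genes, those with more counts per kilobase had the more negative log2 fold changes (Spearman -0.65), and those with longer exons the less negative ones (0.54). Among the 20 cap genes both correlations were -0.10. All these points share the same 8 libraries, so the values are descriptions.

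**Figure D5:**
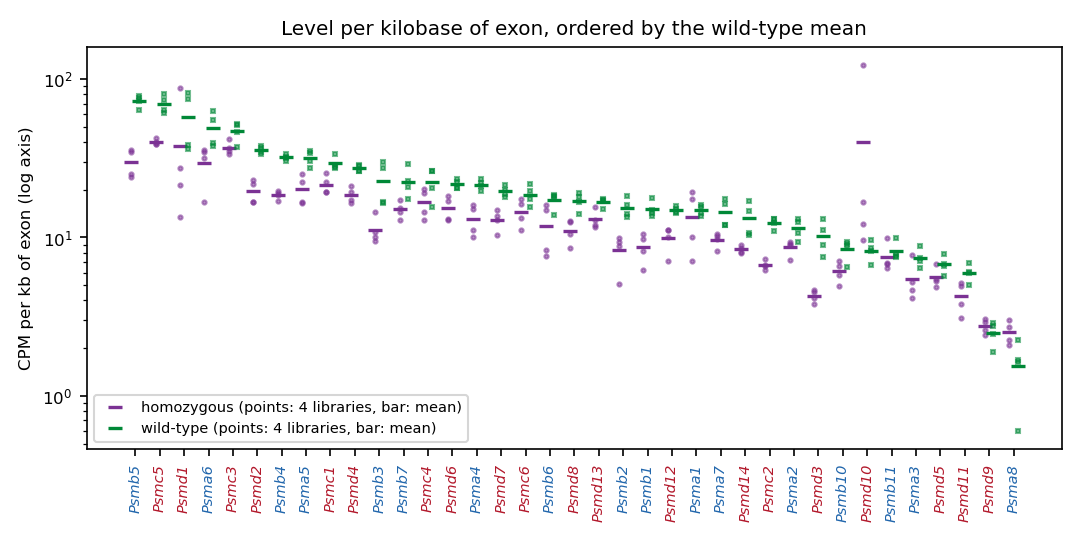
Level of each subunit in CPM per kilobase of exon (vertical axis, logarithmic), ordered by the wild-type mean, with homozygous on the left and wild-type on the right of each gene. Points are the 4 libraries of a genotype and bars their mean. Psmb5 and Psmc5 are highest in wild-type mice, and the homozygous mean of Psmd10 stands above its neighbours, with 1 library far above the rest.

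Some subunits share sequence with other genes, and whether the authors' counting used strand is not stated in the labels. Psmb5 (chromosome 14, 54614119 to 54618022, minus strand, build mm10) holds the microRNA gene Mir686 within an exon on the same strand. Mir686 averaged 2.67 ± 1.34 CPM in homozygous mice and 11.1 ± 1.84 CPM in wild-type mice (SD, n = 4 each), and its log2 fold change was -2.06 (adjusted p = 0.000381). Reads of the pair cannot be told apart by position, so both values are uncertain. Psmd1 (chromosome 1, 86064387 to 86139151, plus strand) overlaps Htr2b, a serotonin receptor gene on the opposite strand, which was called higher with a log2 fold change of 0.64 (adjusted p = 0.0365). On its own strand Psmd1 also overlaps Gm21972, a gene without an entry in the count table, and shares a stretch of 305 bp with it. Psmd2 has a stretch of 2726 bp and Psmd11 one of 1501 bp at 95% identity or more in another annotated gene, and 14 of the 37 genes have at least 100 bp of such sequence elsewhere. Psmd10 (chromosome X, 140948429 to 140956728, minus strand) and Psmd3 (chromosome 11, 98682554 to 98695979, plus strand) have no such sequence. Psmd3 does overlap Gm12356 on the opposite strand, a gene without an entry in the count table. Psma4, Psmb7, Psmc3 and Psmd13 overlap AY074887, Nek6, Slc39a13 and Sirt3 on the opposite strand, and none of these partners was called.

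Genes that work with the proteasome were mostly lower as well. Of 42 genes in 6 lists 23 were called lower and 1 higher, with a median log2 fold change of -0.50. Over all genes tested 20.4% were called lower and 20.7% higher. Without the abundance trend 19 of the 42 were lower and 3 higher, without the trend on counts per kilobase 20 were lower and 4 higher, and with library totals alone 16 were lower and 4 higher, the last beside 11.8% and 32.4% of all genes. Of 5 genes for activators and an inhibitor 2 were lower: Psme1 and Psme2, the partners of the interferon-inducible activator ring, at -0.86 (adjusted p = 0.0125) and -0.83 (adjusted p = 0.00873). Psme3, which forms the nuclear activator, was not called at 0.51 (adjusted p = 0.0765), but was called higher without the abundance trend (0.75, adjusted p = 0.018), without the trend on counts per kilobase (0.96, adjusted p = 0.00769) and with library totals alone (0.71, adjusted p = 0.0221). Its genotypes overlapped, at 101.6 to 213.7 CPM in homozygous and 81.4 to 112.3 CPM in wild-type mice, with homozygous 16 the highest. Of 5 core assembly chaperones 3 were lower, namely Pomp (-0.94, adjusted p = 0.00784), which guides maturation of the catalytic ring, Psmg2 (-0.67) and Psmg3 (-0.53), the last 2 not called with library totals alone. That count was 1 without homozygous 17, wild-type 7, wild-type 9 or wild-type 10. Of 8 cap-bound partners 5 were lower, among them Shfm1, the small lid subunit (-0.79, adjusted p = 0.0096), the deubiquitinase Usp14 (-0.70, adjusted p = 0.0106), the ubiquitin ligase Ube3a (-0.38, adjusted p = 0.0404) and the thioredoxin-like Txnl1 (-0.47, adjusted p = 0.0479). That count fell to 2 without the abundance trend, with library totals alone, and without homozygous 15, homozygous 17 or wild-type 7, and to 3 without homozygous 16, wild-type 9 or wild-type 10. Without the abundance trend Ube3a was at -0.16 (adjusted p = 0.391), Txnl1 at -0.37 (adjusted p = 0.109) and Usp14 at -0.51 (adjusted p = 0.0553).

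Of 10 genes for ubiquitin shuttles and extraction 7 were lower. Vcp, the ATPase that pulls ubiquitinated proteins out of membranes and complexes, averaged 89.7 ± 7.83 CPM in homozygous mice and 167.3 ± 6.96 CPM in wild-type mice (SD, n = 4 each; log2 fold change -0.90, adjusted p = 0.000271). Its log2 fold change was -0.55 without the trend on counts per kilobase. The shuttles Rad23b, Ubqln4 and Ubqln2 had log2 fold changes of -0.83, -0.66 and -0.55, and in none of them did the genotypes overlap. Of 6 genes for ubiquitin and its activating enzymes 5 were lower, with a median of -0.96. Ubb, a polyubiquitin gene, had a log2 fold change of -1.07 (adjusted p = 0.000521), Rps27a, which encodes ubiquitin fused to a ribosomal protein, one of -0.86 (adjusted p = 0.00289), and Uba1, the main activating enzyme, one of -0.82 (adjusted p = 0.00524). Without the trend on counts per kilobase these were at -0.57, -0.50 and -0.41, and Uba1 was not called (adjusted p = 0.103). The ubiquitin genes carry near-identical coding repeats, so how their counts divide among them is uncertain.

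The regulators of proteasome transcription did not share this direction as a list: of 8 genes 1 was lower and 1 higher, with a median of 0.13. Nfe2l1 averaged 115.6 ± 13.8 CPM in homozygous mice and 186.5 ± 30.2 CPM in wild-type mice (SD, n = 4 each). Its log2 fold change was -0.69 (adjusted p = 0.0043), with no overlap between genotypes. It was at -0.38 (adjusted p = 0.0429) without the abundance trend and at -0.33 and not called (adjusted p = 0.0787) without the trend on counts per kilobase, where 0 of the 8 were lower and 2 higher. Maff, a small Maf protein that pairs with such factors, averaged 31.1 ± 7.30 CPM in homozygous mice and 19.7 ± 2.81 CPM in wild-type mice (SD, n = 4 each). Its log2 fold change was 0.66 (adjusted p = 0.0142), also with no overlap. Nfe2l2, the related factor of the oxidative stress response, was not called at -0.21 (adjusted p = 0.352).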

How the data were processed

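RNA of 8 hippocampi was sequenced. The values are raw counts for each gene symbol in a single table deposited by the authors. The submitters' processing notes name the build mm10, and the sources used here give no aligner, counting program or strand setting. The unit was read from the values. Columns were assigned by the titles in the labels, and each is a separate animal per the series' design. All pairs of libraries differed by more than sampling noise (chi-square per degree of freedom at least 5.08). Genes were filtered with filterByExpr (20478 kept) and compared with edgeR 4.0.16 in R 4.3.3 (TMM factors, quasi-likelihood test, two-sided, Benjamini-Hochberg over all genes). SE is the log2 fold change over the root of F. Handling that differed by genotype cannot be told apart from genotype.

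The alternatives were other size factors, filters, DESeq2 1.42.0, limma 3.58.1 voom, each library left out, and loess curves (span 0.3) on abundance or on counts per kilobase removed. Exon lengths and overlaps came from GENCODE M21, and shared sequence from blastn 2.17.0. Named in full were the 2 called members of each role with the largest change, members called higher, the core and cap gene with the highest CPM (not scaled by length), and from companion lists up to 4 called genes by smallest p and those against the list's majority. A gene that this rule names is not reported here. Library values of Psma1, Psma8 and Psmb6, and Mir686, Htr2b, Psme3 and Nfe2l2, were chosen after the values were seen. Members and lists were chosen with earlier results of these data known.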

Additional observations from a re-analysis of the deposited data

Results flagged for a closer look

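Among 78 groups of 4 libraries (each subunit and summed level in each genotype) 4 had a library far from the other 3. Chance gives about 1 in 20 groups, so the number flagged is about the number chance gives. Psmd10 was at 179.5 CPM in homozygous 16 and at 14.2 to 24.6 CPM in the other homozygous libraries. Psmb11 was at 47.9 CPM in homozygous 15 and at 30.8 to 32.9 CPM in the other homozygous libraries, and at 47.5 CPM in wild-type 10 and 36.3 to 37.7 CPM in the other wild-type libraries. Psmb6 was at 25.8 CPM in wild-type 8 and at 33.9 to 34.5 CPM in the other wild-type libraries.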

How the results depend on the processing

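The count of 24 subunits called lower ran from 18 (without homozygous 15) to 28 (without homozygous 18) when 1 library was left out, that of core genes from 8 to 12, that of cap genes from 10 to 16, and that of genes called higher from 0 to 1. Of all genes, 17.1% were lower without homozygous 15 and 18.8% without homozygous 18. Over the fits that left out 1 library these shares ran from 16.3% to 20.1% lower and 15.6% to 19.0% higher. The core median ran from -0.75 to -0.51, the cap median from -0.60 to -0.46 and their difference from -0.24 to -0.031 in these fits. With library totals alone 15 subunits were lower and 2 higher, 7 core and 8 cap genes were lower, and the medians were -0.39 and -0.33. Once the trend on counts per kilobase was taken out 8 cap genes were lower, and the medians were -0.45 and -0.27. At an adjusted p under 0.01, 15 were lower and 0 higher, 7 of the lower ones in the core and 8 in the cap. The share of all genes at that threshold was not computed, so these counts have no background beside them. DESeq2 and limma-voom each called 0 higher, against 18.7% and 22.7% of all genes. DESeq2 gave no adjusted p for Psmd10 (log2 fold change 2.265), so it made no call on that gene. The set without the genes of restricted expression and the base chaperones, which leaves out Psmd10, also had 0 higher. Genes that were not called changed sign in a few fits: Psma1 to 0.042 with library totals, 0.0060 without the trend on counts per kilobase and 0.084 without homozygous 15 (-0.38 without homozygous 18), Psmb11 to 0.077 with library totals, and, without the trend on counts per kilobase, Psmc3 to 0.11 and Psmd9 to -0.052. The causes were not tested. The table held 0 duplicate entries of the members, so adding duplicates gave no value. No paired analysis was possible because the genotypes share no replicate number. Psma8, at 1.5 to 7.52 CPM, is limited by its low counts.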
